A study of Gallus gallus with 16 samples.

Results

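The sodium pump and the channels and exchangers that work with it were described here through 8 genes, ATP1B1, ATP1B3, KCNJ15, CFTR, SLC12A2, SLC4A4, SLC9A3 and SLC26A3. They are 8 of the 13013 genes to which the platform annotation gave a probe set with a single symbol. A probe set is a group of short probes combined into 1 value, and the 8 genes had 15 of the 38439 probe sets tested. These were 1 each for ATP1B1, CFTR and SLC12A2, 2 each for ATP1B3, KCNJ15 and SLC26A3, and 3 each for SLC9A3 and SLC4A4. All 15 were kept and none was filtered for a low level. KCNJ15 and ATP1B3 were selected on their log2 levels by line and day on these arrays, so their levels and differences are given as a description, without a p-value. The other 6 genes were also listed with earlier results known.

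The tissue was chicken duodenum from a population selected in both directions for residual feed intake, with a low line (LRFI) and a high line (HRFI). This trait is feed consumption above or below that predicted from body size and growth. Total RNA was hybridised to 16 Affymetrix chicken arrays, 4 from each of LRFI day 35, LRFI day 42, HRFI day 35 and HRFI day 42. The labels name no treatment, sex, hatch or batch, and no unselected line was analysed here. They do not say whether each array was a separate bird, so p-values reflect only how these arrays scatter, and that scatter may be technical.

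Epithelia move salt and water with a pump in the basolateral membrane, the Na+/K+-ATPase, which exports sodium and imports potassium. Its beta subunits, encoded by ATP1B1 and ATP1B3, help the pump to fold and to reach the membrane, and potassium channels such as KCNJ15 let the imported potassium leave again. In the mammalian small intestine SLC9A3 takes up sodium at the luminal membrane in exchange for protons, SLC26A3 takes up chloride in exchange for bicarbonate, and CFTR, SLC12A2 and SLC4A4 serve the secretion of chloride and bicarbonate.

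Levels are log2 values as the authors deposited them, so a difference of 1 is a 2-fold difference, and arrays are compared within a probe set. Ranks among all probe sets are given only to say which are bright or dim, since probes differ in how strongly they bind. Array medians lay between 5.05 and 5.10. Of 14 enterocyte markers 13 were measured, all above the median level, and their mean was between 12.51 and 12.92 on every array. Of 5 listed duodenal and intestinal factors 4 were measured, CDX1, CDX2, HNF4A and GATA4, all above the median level, while PDX1 was not measured. Of the 3 measured genes of the gastric list ATP4B (acid pump subunit) and GKN2 read below the median level and PGA (pepsinogen) above it, at 5.98 to 6.58. Enzymes of the pancreas, which lies in the duodenal loop, stood out on 2 arrays. Of 21 pancreatic acinar genes 14 were measured, PNLIP and PNLIPRP1 by the same probe set, which entered the mean for each of them. The mean reached 12.86 on HRFI day 35 replicate 3. It was 10.62 for LRFI day 42 replicate 2, while the remaining 14 arrays had 4.54 to 5.44. The difference between the 3′ and 5′ actin probe sets, often read as a sign of RNA integrity, was over 1 on 5 arrays. These were LRFI day 35 replicates 3 and 4, HRFI day 35 replicates 2 and 3 and HRFI day 42 replicate 4. Without these 5, day 35 keeps only LRFI replicates 1 and 2 and HRFI replicates 1 and 4. Day 35 differences given without them therefore rest on few arrays and can turn on a single one. The actin difference was 0.19 to 0.50 on the other 11. The same difference for GAPDH did not set these 5 arrays apart, at 0.054 to 0.26 against 0.11 to 0.40 on the other 11. RNA integrity itself was not tested. In bulk tissue fewer cells of a type and less RNA per cell cannot be told apart.

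None of the 15 probe sets passed in any of the 7 comparisons with limma, at an adjusted p under 0.05 over all 38439 probe sets. The background was as low. At day 35 the lines differed in 0% of all probe sets, at day 42 in 0.0026% and on the average of both ages in 0%. Day 42 differed from day 35 in 0% within LRFI, 0% within HRFI and 0.0026% on the average of both lines, and the interaction of line and age was called in 0%. At an unadjusted p under 0.05, 4 of the 15 differed between the lines at day 35 (6.66% of all probe sets), 3 at day 42 (5.57%) and 3 on average (5.48%). For age the counts were 2 in LRFI (9.83%), 2 in HRFI (8.28%) and 1 on average (11.8%), and for the interaction 2 (6.34%). Apart from KCNJ15 and ATP1B3, the genes chosen for their values, these were SLC4A4 between the lines at day 35 and on average, and SLC12A2 for age in HRFI and on average. KCNJ15 and ATP1B3 supplied all the rest, so these counts do not speak for the set. The median line difference, LRFI minus HRFI, of the 15 probe sets was 0.088 at day 35 and −0.096 at day 42, against −0.013 and −0.0091 over all probe sets.

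KCNJ15 encodes an inwardly rectifying potassium channel known from the kidney tubules and the stomach of mammals. Its 2 probe sets are called S1 and A1 after the ends of their names. On the S1 probe set the LRFI day 35 arrays, replicates 1 to 4, read 6.78, 7.06, 5.70 and 6.82, and the HRFI day 35 arrays 8.52, 7.61, 7.33 and 8.41. At day 42 the LRFI arrays read 6.24, 7.87, 5.51 and 6.46, and the HRFI arrays 7.74, 9.47, 8.52 and 8.28. At day 35 no LRFI array reached the lowest HRFI array, and at day 42 the lines overlapped through a single array, LRFI replicate 2, which read above the lowest HRFI array. The means were 6.59 ± 0.60 (SD, n = 4) against 7.97 ± 0.59 at day 35, a difference of −1.38 (SE 0.46), and 6.52 ± 0.99 against 8.51 ± 0.72 at day 42, a difference of −1.99 (SE 0.46).

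Over both ages the S1 probe set of KCNJ15 averaged 6.56 ± 0.76 in LRFI and 8.24 ± 0.67 in HRFI (SD, n = 8), a difference of −1.68 (SE 0.33) or 3.21-fold. These values chose the gene and are not evidence of a line difference. The 4 group means fell into the order HRFI day 42, HRFI day 35, LRFI day 35 and LRFI day 42, and neighbours in this order overlapped except HRFI day 35 and LRFI day 35. Within a line the ages did not separate, since their arrays overlapped in both lines. The day 42 level differed from day 35 by 0.23 (SE 0.33) on average of both lines, and the line difference at day 42 exceeded that at day 35 in size by 0.61 (SE 0.65), less than its error.

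The A1 probe set of KCNJ15 spanned a narrower range, 4.66 to 6.12 over the 16 arrays against 5.51 to 9.47 for S1. It was also dimmer, with a mean of 5.36 at the 54.5th percentile of all probe set means. The mean of S1 was 7.40, at the 78.9th percentile. A1 read 5.17, 4.94, 5.04 and 5.24 on the LRFI day 35 arrays and 6.12, 5.35, 5.34 and 6.00 on the HRFI day 35 arrays. At day 42 it read 4.94, 5.56, 4.66 and 4.86 in LRFI and 5.14, 5.93, 5.57 and 5.84 in HRFI. Again the lines were apart at day 35 and overlapped at day 42. The difference was −0.61 at each age (SE 0.22 for both) and −0.61 on average (SE 0.15, 1.53-fold), so the 2 probe sets of the gene had the same direction and differed in size. Their levels ran together over the 16 arrays, with Pearson's r = 0.88 and Spearman's rho = 0.89, and r = 0.81 after the group means were subtracted, so the likeness was also present within groups. Both were read from the same arrays, and r is given as a description.

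**Figure D1:**
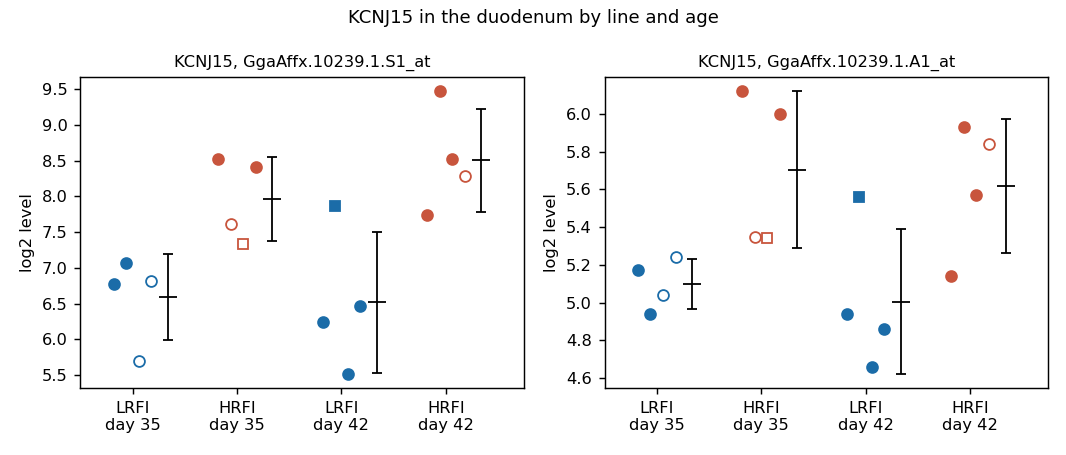
Log2 level of the 2 KCNJ15 probe sets on each array (points, in the order of the replicates) for LRFI (blue) and HRFI (red) at each age, with group mean ± SD beside them. Squares are the 2 arrays with pancreatic enzymes and open symbols the 5 arrays with actin differences over 1. On both probe sets the lines do not overlap at day 35, and at day 42 the highest LRFI point is the square.

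Of the 2 arrays with pancreatic enzymes, LRFI day 42 replicate 2 had the highest KCNJ15 level of its group on both probe sets, and HRFI day 35 replicate 3 the lowest. Without these 2 arrays the average line difference was −2.01 on S1 and −0.76 on A1. Without the 5 arrays with actin differences over 1 the average was −1.80 and −0.77, and on A1 the day 35 difference was −1.01 in place of −0.61. The gastric marker list, of which 3 of 5 genes were measured, had a mean of 4.18 to 4.54 on the 16 arrays, with ATP4B at 3.38 to 3.70, GKN2 at 3.02 to 3.83 and PGA at 5.98 to 6.58. The part of these measures in the KCNJ15 values was not tested further.

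The genes whose probe sets ran most like the S1 probe set of KCNJ15 over the 16 arrays, among 14244 named probe sets above the median level, were TMEM106B (Pearson's r = 0.85), TCF25 (0.82), ETFBKMT (0.82), SFT2D2 (0.78) and CPLANE1 (0.78). After group means were subtracted r lay between 0.53 for TCF25 and 0.80 for ETFBKMT. All 5 had lower means in LRFI at both ages, from −0.12 to −0.67 at day 35 and from −0.16 to −0.59 at day 42. These are the highest of many correlations on the same arrays and carry no test. Because the 5 were picked for their likeness to KCNJ15, their shared direction follows largely from that choice.

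ATP1B3 encodes a beta subunit of the sodium pump, and its 2 probe sets are called S1 and S2. On S1 the LRFI day 35 arrays read 8.67, 9.14, 8.53 and 8.40 and the HRFI day 35 arrays 7.94, 8.02, 7.92 and 8.27. At day 42 the LRFI arrays read 8.11, 8.07, 8.07 and 8.11 and the HRFI arrays 8.18, 8.73, 8.33 and 8.44. The lines were apart at both ages and in opposite directions, LRFI being the higher at day 35 and the lower at day 42. The LRFI day 42 arrays were the closest together of the 4 groups and the LRFI day 35 arrays were spread most.

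The mean ATP1B3 level at day 35 was 8.68 ± 0.32 in LRFI against 8.03 ± 0.16 in HRFI (SD, n = 4), a difference of 0.65 (SE 0.14, 1.57-fold). At day 42 it was 8.09 ± 0.02 against 8.42 ± 0.23, a difference of −0.33 (SE 0.14, 1.26-fold). The line difference therefore changed by −0.98 (SE 0.20) between the ages, and the line averages were near each other, at 8.39 ± 0.38 and 8.23 ± 0.28 (SD, n = 8). Seen by age, day 42 differed from day 35 by −0.59 (SE 0.14) in LRFI, where the 2 ages did not overlap, and by 0.39 (SE 0.14) in HRFI, where they did. In order the group means ran from LRFI day 35 through HRFI day 42 and LRFI day 42 to HRFI day 35, and of the neighbours in this order only HRFI day 42 and LRFI day 42 did not overlap. Without the 5 arrays with actin differences over 1 the day 35 difference was 0.80 and its change with age −1.13. The 0.80 keeps LRFI day 35 replicate 2, the highest array, among few arrays. Without only that array the day 35 difference was 0.50. Without the 2 arrays with pancreatic enzymes the day 35 difference was 0.61 and its change with age −0.93. The mean of the 9 enteroendocrine markers, all measured, was also apart between the ages in LRFI, at 7.56 to 7.80 on day 35 and 7.27 to 7.50 on day 42, with r = 0.47 to ATP1B3 over the 16 arrays and −0.13 after group means were subtracted. Its part in the ATP1B3 values was not tested.

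The S2 probe set of ATP1B3 showed the same signs with smaller differences and overlapping groups. It read 7.83, 8.17, 7.96 and 7.49 in LRFI and 7.58, 7.54, 7.63 and 7.66 in HRFI at day 35. At day 42 it read 7.55, 7.52, 7.60 and 7.43 in LRFI and 7.36, 7.98, 7.63 and 7.84 in HRFI. LRFI day 35 replicate 4 lay below all HRFI arrays of that age and HRFI day 42 replicate 1 below all LRFI arrays. The line difference was 0.26 (SE 0.14) at day 35 and −0.18 (SE 0.14) at day 42, a change of −0.44 (SE 0.19). The 2 probe sets had r = 0.83 and rho = 0.61 over the 16 arrays, which became r = 0.63 without the 2 arrays farthest from the median of the first, and r = 0.81 with group means subtracted.

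Counting all 15 probe sets, the lines were apart at day 35 for 3, both of KCNJ15 and the S1 probe set of ATP1B3, against 2.87% of all probe sets. At day 42 this held for 1 (4.43%), and for 1 the lines were apart at both ages in opposite directions (0.0832%). Since KCNJ15 and ATP1B3 supplied all of these and had been chosen for their values, the counts do not speak for the set. The genes most like ATP1B3 over the 16 arrays were HNRNPAB (r = 0.85), NAPEPLD (0.82), FGD3 (0.82), ESRRB (0.81) and EPS15 (0.80). Each of these 5 was higher in LRFI at day 35, by 0.17 to 0.84, and lower at day 42, by −0.092 to −0.42. This again describes the closest among 14244, and the shared pattern follows largely from that choice.

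**Figure D2:**
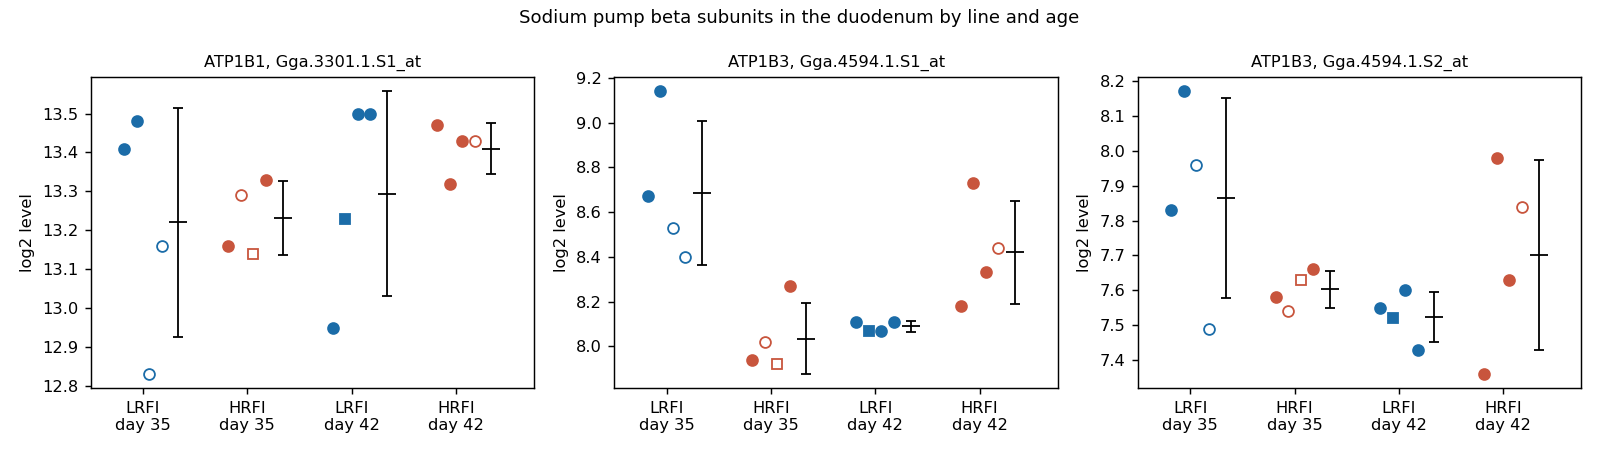
Log2 level of ATP1B1 and of the 2 ATP1B3 probe sets on each array, with symbols as in the plot of KCNJ15 and group mean ± SD beside the points. In the middle panel LRFI reads 8.40 to 9.14 above HRFI at day 35 and 8.07 to 8.11 below HRFI at day 42, and in the other panels the groups overlap.

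ATP1B1, the beta subunit that predominates in most epithelia of mammals, did not follow ATP1B3. Its only probe set read 13.41, 13.48, 12.83 and 13.16 in LRFI and 13.16, 13.29, 13.14 and 13.33 in HRFI at day 35. At day 42 it read 12.95, 13.23, 13.50 and 13.50 in LRFI and 13.47, 13.32, 13.43 and 13.43 in HRFI. Its mean stood at the 99.6th percentile of all probe set means. Every pair of groups overlapped. The line difference was −0.011 (95% confidence interval −0.31 to 0.28, limma adjusted p = 0.995) at day 35 and −0.12 (−0.41 to 0.18, limma adjusted p = 0.964) at day 42, and −0.063 on average (−0.27 to 0.15). The 2 LRFI groups were spread more (SD 0.29 and 0.26, n = 4) than the 2 HRFI groups (SD 0.094 and 0.065, n = 4). The lowest 2 of all 16 values were on LRFI day 35 replicate 3 and LRFI day 42 replicate 1.

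Over the 16 arrays ATP1B1 ran with the mean of the 13 enterocyte markers, with r = 0.65 and rho = 0.78, and r = 0.81 after group means were subtracted. Without the 2 arrays farthest from the median of the marker mean, r was 0.56. This is 1 of 180 such relations computed between the 15 probe sets and 12 measures of the arrays, which share the RNA and the normalization, and it has no test.

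Of 9 other listed genes of the pump and its regulation 3 were measured, the regulators FXYD2 and FXYD6 and the beta subunit relative ATP1B4. None passed in any comparison. By the brightest probe set of each gene, all 3 were lower in LRFI at day 35, with differences of −0.38 to −0.065. At day 42, 2 were higher and 1 lower, from −0.054 to 0.21. Over all probe sets of ATP1B4, FXYD2 and FXYD6 the line differences lay on both sides of 0, between −0.38 and 0.096 at day 35 and between −0.16 and 0.26 at day 42.

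SLC12A2, the basolateral cotransporter of sodium, potassium and chloride that loads secretory cells with chloride, had 1 probe set. It read 7.47, 7.91, 7.33 and 7.55 in LRFI and 7.55, 7.11, 6.86 and 7.72 in HRFI at day 35. At day 42 it read 7.55, 7.58, 8.07 and 7.51 in LRFI and 7.83, 7.85, 7.83 and 7.64 in HRFI. The lowest 2 values were those of HRFI day 35 replicates 2 and 3, and the lines overlapped at both ages. The line difference was 0.25 (SE 0.18, 95% confidence interval −0.12 to 0.63, limma adjusted p = 0.850) at day 35 and −0.11 (−0.48 to 0.27, limma adjusted p = 0.975) at day 42. The largest difference of the gene was that of age in HRFI, 0.47 (SE 0.18), from 7.31 ± 0.39 to 7.79 ± 0.10 (SD, n = 4), which did not pass (limma adjusted p = 0.483). On average of both lines day 42 was higher by 0.29 (SE 0.13, limma adjusted p = 0.376).

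The level of SLC12A2 moved with the actin difference (r = −0.78 over 16 arrays, −0.46 without the 2 arrays farthest from its median). This too is among the 180 relations computed and has no test. SLC12A2 also had r = 0.57 with the enterocyte marker mean and −0.53 with the pancreatic mean. Without the 2 arrays farthest from the median of each mean these were 0.61 and 0.021. The 5 arrays with actin differences over 1 read 6.86 to 7.64 with a median of 7.33, and 3 of them lay below all of the other 11 arrays, which read 7.47 to 8.07 with a median of 7.72. The 2 lowest arrays had the 2 highest actin differences, 1.83 and 2.07. Without the 5 arrays the age difference was 0.20 in HRFI and 0.093 on average, and when the actin difference entered the fit they were 0.29 and 0.13. The day 35 line difference was 0.057 without them. HRFI day 35 replicate 3 also had the highest mean of pancreatic enzymes, and without both arrays with such enzymes the HRFI age difference was 0.32 and the day 35 line difference 0.11. In HRFI the ages overlapped for SLC12A2, while the mean of the 13 enterocyte markers was apart between them. That mean was 12.51 to 12.61 on day 35 and 12.66 to 12.78 on day 42. The part of these measures in the SLC12A2 values was not tested beyond this.

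**Figure D3:**
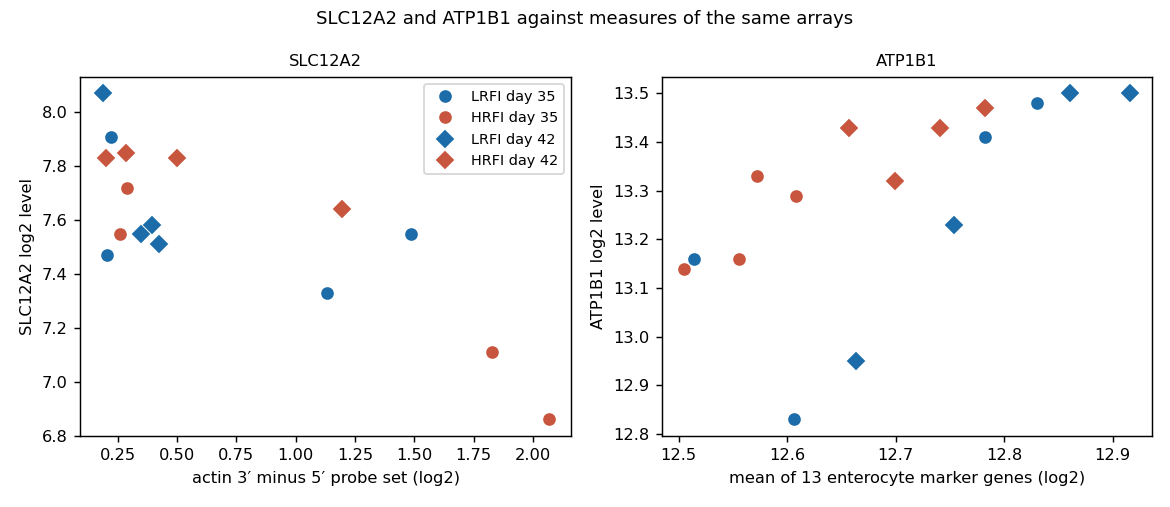
Log2 level of SLC12A2 against the difference between the 3′ and 5′ actin probe sets (left) and of ATP1B1 against the mean log2 level of 13 enterocyte markers (right), 1 point per array, LRFI in blue and HRFI in red, circles for day 35 and diamonds for day 42. The 5 arrays with actin differences over 1 read at most 7.64 for SLC12A2, and ATP1B1 and the marker mean have r = 0.65.

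CFTR, the chloride channel of the luminal membrane that opens on cyclic AMP signals, had 1 probe set. It read 5.56, 5.63, 5.66 and 5.36 in LRFI and 5.65, 5.16, 5.34 and 5.56 in HRFI at day 35. At day 42 it read 4.98, 5.71, 5.35 and 6.12 in LRFI and 5.37, 5.42, 5.56 and 5.34 in HRFI. The LRFI day 42 group held both the lowest and the highest value of the 16 (SD 0.49, against 0.098 to 0.22 in the other groups, n = 4). The line difference was 0.13 (95% confidence interval −0.26 to 0.51, limma adjusted p = 0.935) at day 35, 0.11 (−0.27 to 0.50, limma adjusted p = 0.973) at day 42 and 0.12 (−0.15 to 0.39) on average. Without LRFI day 42 replicate 4, the highest array, the day 42 difference was −0.078 and the average 0.024, and without LRFI day 42 replicate 1, the lowest, they were 0.30 and 0.21. Without the 5 arrays with actin differences over 1 the day 35 difference was −0.0090. Day 42 differed from day 35 by −0.0084 on average of both lines (−0.28 to 0.26, limma adjusted p = 0.988).

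SLC4A4, which brings sodium and bicarbonate together into the cell across the basolateral membrane of mammalian intestine and pancreatic ducts, had 3 probe sets, here called the brightest, the middle and the dimmest by their mean level. On the brightest the LRFI arrays read 5.76, 5.74, 5.45 and 5.87 and the HRFI arrays 5.50, 5.82, 5.11 and 4.96 at day 35. At day 42 they read 5.80, 5.89, 5.79 and 5.67 in LRFI and 5.64, 5.70, 5.39 and 5.54 in HRFI. LRFI had the higher mean at both ages, but the lines overlapped at both. The difference was 0.36 (SE 0.15, limma adjusted p = 0.722) at day 35, 0.22 (SE 0.15, limma adjusted p = 0.931) at day 42 and 0.29 (SE 0.11, 95% confidence interval 0.058 to 0.52, limma adjusted p = 0.872) on average, with an unadjusted p of 0.0172. When single arrays were left out the day 35 difference ran from 0.23, without HRFI day 35 replicate 4, the lowest array, to 0.51. Without the 5 arrays with actin differences over 1 it was 0.52. With all arrays kept, the mean of the 3 probe sets differed by 0.11 at day 35.

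The other probe sets of SLC4A4 did not show that difference in the same way. The middle one read 3.89 to 4.51 over the 16 arrays and differed by 0.14 (SE 0.083, limma adjusted p = 0.903) on average, with the same sign. The dimmest read 2.56 to 2.93, at the 4.16th percentile of all probe set means, and differed by −0.095 (SE 0.059, limma adjusted p = 0.903). Over the 16 arrays the brightest had r = 0.51 and rho = 0.69 with the middle one and r = −0.35 with the dimmest.

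SLC9A3, the luminal exchanger of sodium and protons, also had 3 probe sets, named by level in the same way. On the brightest the LRFI arrays read 5.14, 7.07, 5.39 and 5.36 and the HRFI arrays 5.80, 5.91, 5.62 and 4.97 at day 35. At day 42 they read 4.95, 4.54, 5.79 and 5.15 in LRFI and 4.90, 5.94, 5.13 and 5.58 in HRFI. LRFI day 35 replicate 2 stood above all other arrays here, and on the middle probe set too, where it read 6.52 against 4.49 to 5.90. The line difference on the brightest was 0.16 (95% confidence interval −0.63 to 0.96, limma adjusted p = 0.962) at day 35 and −0.28 (−1.08 to 0.52, limma adjusted p = 0.967) at day 42. Without LRFI day 35 replicate 2 the day 35 difference was −0.28 on the brightest and −0.19 on the middle probe set, in place of 0.16 and 0.21. Without the 5 arrays with actin differences over 1 it was 0.72 and 0.61, values that keep LRFI day 35 replicate 2 among few arrays.

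The brightest and middle probe sets of SLC9A3 had r = 0.73 and rho = 0.57 over the 16 arrays, and r = 0.42 without the 2 arrays farthest from the median of the middle one. The dimmest read 2.23 to 2.68, at the 0.62nd percentile of all probe set means, and ran against the others (r = −0.62 and −0.60).

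SLC26A3, the luminal exchanger of chloride and bicarbonate, was dim on both of its probe sets and varied little. The brighter read 4.24 to 4.71 and the dimmer 3.96 to 4.55 over the 16 arrays. On the brighter, all 4 HRFI day 42 arrays (4.32 to 4.41) lay below all 4 HRFI day 35 arrays (4.42 to 4.71), a difference of −0.19 (SE 0.088, limma adjusted p = 0.605). The highest value was that of HRFI day 35 replicate 3, the array with the most pancreatic enzymes, and without both such arrays the difference was −0.13. In HRFI the ages were apart for this 1 of the 15 probe sets, against 4.58% of all, and in LRFI for 1, that of ATP1B3, against 4.99%. The dimmer probe set of SLC26A3 differed by −0.022 (SE 0.11, limma adjusted p = 0.979) in the same comparison, and the 2 had r = 0.22. Between the lines the brighter differed by −0.14 (95% confidence interval −0.33 to 0.045) at day 35 and 0.0044 (−0.18 to 0.19) at day 42.

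**Figure D4:**
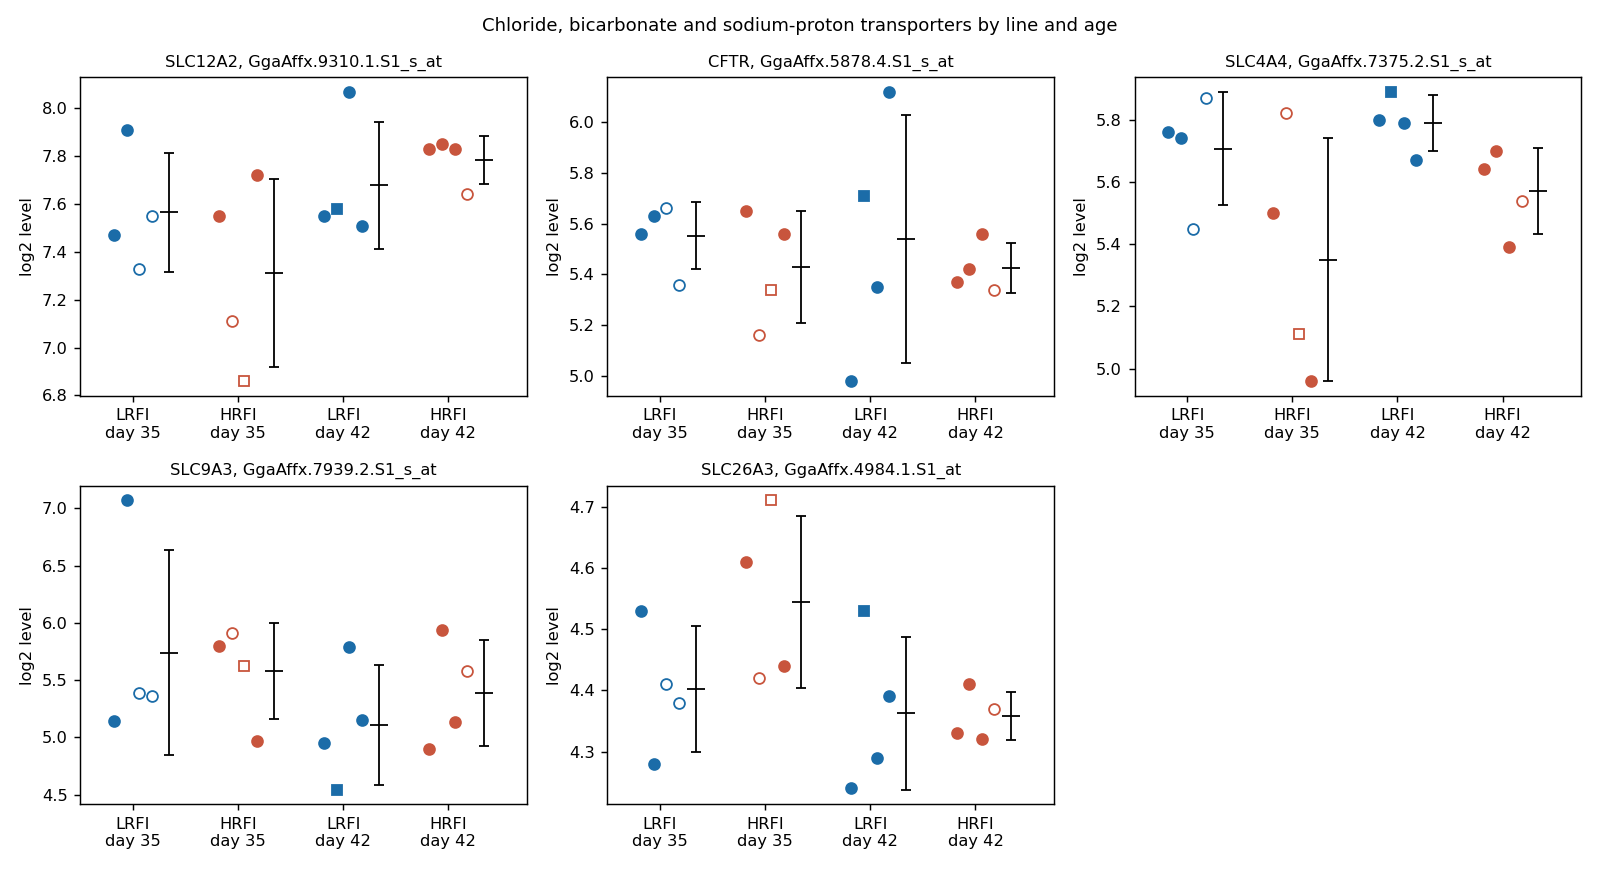
Log2 level of SLC12A2, CFTR, SLC4A4, SLC9A3 and SLC26A3 on each array, each by its probe set with the highest mean, with symbols as in the plot of KCNJ15 and group mean ± SD beside the points. The lines overlap at both ages in every panel, and the open symbols of SLC12A2 are low at HRFI day 35.

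**Figure D5:**
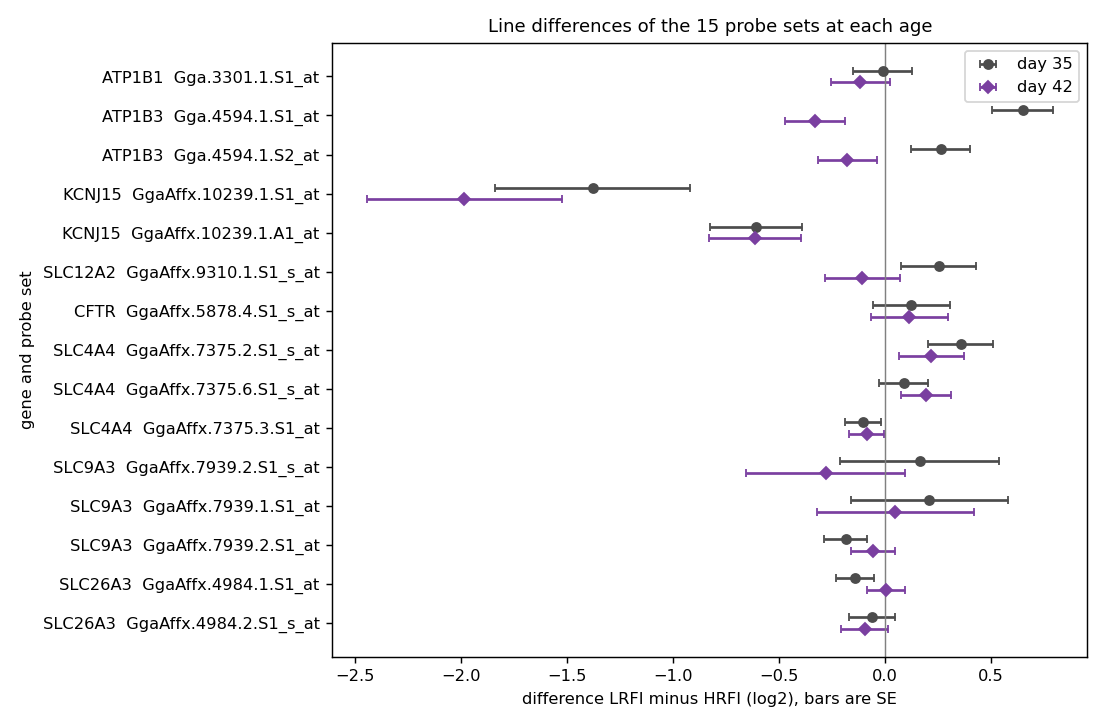
Difference LRFI minus HRFI (log2, bars are SE from limma) of the 15 probe sets at day 35 (circles) and day 42 (diamonds). The 2 probe sets of KCNJ15 lie below 0 at both ages, from −0.61 to −1.99, those of ATP1B3 lie on opposite sides of 0 at the 2 ages, and the other 11 lie between −0.28 and 0.36.

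Beyond the 8 genes, 78 of 97 listed genes of epithelial ion transport were measured, and none passed in any of the 7 comparisons with limma. At an unadjusted p under 0.05, each gene being read from its brightest probe set, none of the 78 differed between the lines at day 35, against 7.31% of all genes, and 4 did at day 42 (5.59%) and 4 on average (5.71%). Dimmer probe sets of SLC12A8, ANO1 and KCNMA1, outside this count, had unadjusted limma p of 0.00056, 0.0021 and 0.0034 at day 35. The median line difference of the 78 was −0.041 at day 35 and −0.0092 at day 42, against −0.00077 and −0.012 over all genes. Of the 13 other potassium channel genes, 7 were higher and 6 lower in LRFI at day 35, with a range of −0.18 to 0.60, and 4 were higher and 9 lower at day 42, with a range of −0.52 to 0.27.

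Among all probe sets of the listed genes, those with the smallest p for the lines at day 35 were of SLC12A8, a relative of SLC12A2 (0.50, SE 0.12, limma adjusted p = 0.544), ANO1, a calcium-activated chloride channel (−0.52, SE 0.14, limma adjusted p = 0.597), and KCNMA1, a calcium-activated potassium channel (−0.48, SE 0.14, limma adjusted p = 0.610). At day 42 they were of PDZD3, a scaffold protein of luminal transporters (0.35, SE 0.13), the kinase WNK1 (−0.35, SE 0.13) and another probe set of ANO1 (0.42, SE 0.17), with limma adjusted p from 0.854 to 0.873. The ANO1 probe sets of day 35 and day 42 are not the same, so their opposite signs mix probe set and age. The one named at day 35 averaged 3.38 in LRFI and 3.33 in HRFI at day 42. The one named at day 42 averaged 6.85 in LRFI and 6.84 in HRFI at day 35. The brightest probe sets of the other genes did not always share the sign of those named, with 0.13 for KCNMA1 and −0.061 for SLC12A8 at day 35 and 0.20 for WNK1 at day 42. On average of both ages KCNMA1 (−0.34, SE 0.099), WNK1 (−0.27, SE 0.091) and PDZD3 (0.28, SE 0.10) had the smallest p (limma adjusted p from 0.782 to 0.859).

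For age, the smallest p in LRFI belonged to VIPR1, a receptor of the secretory peptide VIP (0.56, SE 0.19), SLC26A9, a chloride transporter (0.53, SE 0.19), and SLC12A8 (−0.31, SE 0.12), with limma adjusted p from 0.366 to 0.420. In HRFI they were ANO1 (−0.50, SE 0.14), PDE4D, which breaks down cyclic AMP (−0.55, SE 0.17), and SLC12A8 (0.36, SE 0.12), with limma adjusted p from 0.365 to 0.422. On average of both lines PDE4D (−0.40, SE 0.12), SLC12A8 (−0.23, SE 0.074) and GUCY2C, the guanylin receptor (0.38, SE 0.13), had the smallest p (limma adjusted p from 0.235 to 0.283). For the interaction they were SLC12A8 (−0.67, SE 0.16), SLC12A1 (−0.31, SE 0.11) and ANO1 (0.58, SE 0.20), with limma adjusted p from 0.539 to 0.714. SLC12A8 was named through 1 probe set in 4 of these comparisons and through another, its brightest, in the average over lines. In HRFI the brightest had an age difference of −0.19 in place of 0.36. The probe sets named for PDE4D, GUCY2C, SLC26A9 and ANO1 were also not the brightest of their genes. PDE4D and GUCY2C were among 10 listed genes of secretory signalling. By brightest probe sets, the age differences of these 10 lay between −0.22 and 0.30 on average and between −0.39 and 0.26 in HRFI. The brightest probe set of SLC12A1 had an interaction of 0.044 in place of −0.31, and the ANO1 probe set of day 35 and those of WNK1 and SLC12A1 were dim, with means of 3.46, 3.12 and 2.68.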

How the data were processed

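Expression was measured in duodenum RNA on 16 one-colour arrays. The log2 values were deposited by the authors, and Partek 6.5 and RMA are named in the submitters' processing notes. RMA in general corrects background, equalizes arrays by quantiles and combines probes. No further scaling was applied. Of 38535 probe sets, 96 controls were left out. The annotation gave 27184 probe sets 1 symbol, 161 several and 11094 none, and the 8 symbols were the same in RefSeq's gene table.

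The 4 group means were estimated from the 16 arrays together with limma 3.58.1 (R 4.3.3), with eBayes and Benjamini-Hochberg adjustment over 38439 probe sets in each of 7 comparisons. SE and 95% confidence intervals are from this fit. The fit was tested on simulated data. Members, lists and tests were chosen with earlier results of these data known. All member probe sets, the 3 listed ion transport probe sets with the smallest p per comparison, and the 5 genes most correlated with KCNJ15 and ATP1B3 were named. Same-numbered arrays of different groups did not deviate together (median r = −0.048 over 24 pairs, 6 of them over 0.1), so numbers were not taken as pairs. Alternatives were a replicate block, other variance estimates, a level filter, leaving out arrays, covariates, another scaling and the mean of a gene's probe sets.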

Additional observations from a re-analysis of the deposited data

Results flagged for a closer look

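An array stood apart from the other 3 of its group, by Dixon's ratio, in 4 of the 60 groups tested (15 probe sets in 4 groups), where chance gives about 1 in 20. SLC12A2 read 8.07 in LRFI day 42 replicate 3, where the others had 7.51 to 7.58, and 7.64 on HRFI day 42 replicate 4, 1 of the 5 arrays with actin differences over 1, against 7.83 to 7.85. The brightest probe set of SLC9A3 read 7.07 on LRFI day 35 replicate 2 against 5.14 to 5.39. The dimmest of SLC4A4 read 2.89 on LRFI day 42 replicate 2, an array with pancreatic enzymes, against 2.69 to 2.70.

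For the S1 probe set of ATP1B3 the lines were apart in opposite directions at the 2 ages, so that the line difference changed by −0.98. This change was not tested further, because the gene was chosen with its values known.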

How the results depend on the processing

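No member probe set passed in any comparison under any alternative tried, and 60 of the 105 differences (15 probe sets, 7 comparisons) kept their sign in all of them. Over all probe sets the calls, 0 or 1, reached at most 45 (day 42 against day 35 on average of both lines, without LRFI day 35 replicate 1). With the replicate block as a term 0 members passed in each comparison. Over all probe sets it gave 11 calls for age in HRFI, 19 for age on average and 1 for the lines on average. Without it these were 0, 1 and 0. The block cannot change the differences themselves, because every group holds each replicate number once. When single arrays were left out, the average line difference of KCNJ15 ran from −1.91 to −1.51 on S1 and from −0.70 to −0.54 on A1. The interaction of ATP1B3 ran from −1.07 to −0.83 on S1 and from −0.56 to −0.34 on S2. Means of both probe sets gave −1.15 for KCNJ15 on average and −0.71 for the ATP1B3 interaction. Without the 5 arrays with actin differences over 1, ATP1B1 differed between the lines at day 35 by 0.20 and the brightest probe set of SLC9A3 by 0.72. Both values compare LRFI replicates 1 and 2 with HRFI replicates 1 and 4. The SLC9A3 difference was −0.28 when only LRFI day 35 replicate 2 was left out. The causes were not tested. The number of arrays limits the precision.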
